A study of Mus musculus and Rattus norvegicus with 32 samples.

Results

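The genes described here encode 10 regulators of G-protein signaling (RGS proteins), Rgs1, Rgs2, Rgs3, Rgs4, Rgs5, Rgs6, Rgs10, Rgs12, Rgs14 and Rgs16. They were chosen by symbol, and all 10 were present in each of the 4 deposited tables, among 55487 genes in each table of mouse hearts and 32883 genes in the table of rat cells. In each comparison 9 of the 10 passed the filter on low counts and were tested, and Rgs1 passed it in none. The study asked what the loss or gain of METTL5, the enzyme that places an N6-methyladenosine on 18S ribosomal RNA, does to the heart at rest and under stress. Each of the 8 groups held 4 libraries, 32 in all.

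The mice were C57BL/6. Hearts at the age of 1 month came from animals labelled METTL5-KO, a knockout, and from control littermates. Hearts at 3 months were labelled METTL5-cKO and control. In the METTL5-cKO line, floxed exons of METTL5 are deleted by Cre under the Myh6 promoter, so the deletion is restricted to cardiomyocytes, while whole hearts were sequenced. The study does not state whether the control littermates carried Cre or the floxed allele, and the genotype field of the labels calls these animals Mettl5-KO where the titles say Mettl5-cKO. A further set of METTL5-cKO and control mice, given the same age of 3 months in the labels, was taken 4 weeks after transverse aortic constriction (TAC), a surgical narrowing of the aorta that loads the left ventricle with pressure. All hearts in the TAC table had the surgery. Neonatal rat ventricular myocytes (NRVMs) came from Sprague Dawley rats at postnatal day 2 and were pre-plated to remove fibroblasts. They were transduced with adenovirus carrying the human METTL5 coding sequence (AdMETTL5) or GFP (AdGFP), and both groups received 20 µM phenylephrine (PE), an agonist of alpha-adrenergic receptors, for 24 h.

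Receptors coupled to G proteins signal by loading GTP onto a G alpha subunit, which then separates from its beta and gamma partners. RGS proteins bind the active alpha subunit and speed its hydrolysis of GTP, so they shorten the signal. In the heart the Gq branch carries the hypertrophic signals of alpha-adrenergic, angiotensin and endothelin receptors, and the Gi branch carries the vagal signal of muscarinic receptors. The small R4 subfamily consists of little more than the RGS domain and holds Rgs1, Rgs2, Rgs3, Rgs4, Rgs5 and Rgs16. Rgs6 belongs to the R7 subfamily, which is stable only in a complex with the beta subunit Gnb5, and Rgs10, Rgs12 and Rgs14 belong to the R12 subfamily.

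In the mouse genome (GRCm38) 5 of the genes lie on chromosome 1, and all of these are of the R4 subfamily. Rgs4 (from 169741477 to 169747642, minus strand) and Rgs5 (from 169655501 to 169695813, plus strand) are 45663 bp apart. Rgs2 (from 143999338 to 144004161) and Rgs1 (from 144242296 to 144249242), both on the minus strand, are 238134 bp apart. Rgs16 lies on chromosome 1 from 153740349 to 153745468, Rgs3 on chromosome 4 from 62559847 to 62704001, Rgs12 on chromosome 5 from 34949445 to 35039644, Rgs10 on chromosome 7 from 128373621 to 128418758, Rgs6 on chromosome 12 from 82588292 to 83162056 and Rgs14 on chromosome 13 from 55369732 to 55384687. Rgs3, Rgs6, Rgs10, Rgs12 and Rgs16 overlap other annotated genes, and the strandedness of the counting is not given in the sources used here, so reads of these pairs may have been shared.

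RefSeq promoter windows (GRCm38.p6, 250 bases before to 50 after the start of transcription) were matched for 8 of the 10 genes in 10 windows. The 250 bases before the start are shown for Rgs2 and Rgs10, on which the comparisons below turn. They are also shown for the neighbours Rgs4 and Rgs5, which, like Rgs2, Rgs3 and Rgs12, had lower mean levels in METTL5-cKO hearts after TAC. Each is written 5′ to 3′ on the strand of its gene, and capitals mark the motifs searched.
Rgs2, chr1:144004150-144004399, minus strand: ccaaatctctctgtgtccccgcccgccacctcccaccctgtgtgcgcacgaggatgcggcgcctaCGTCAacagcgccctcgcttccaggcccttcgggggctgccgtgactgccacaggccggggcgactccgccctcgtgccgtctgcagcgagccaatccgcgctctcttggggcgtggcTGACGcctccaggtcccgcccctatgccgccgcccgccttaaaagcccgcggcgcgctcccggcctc
Rgs10, chr7:128418173-128418422, minus strand: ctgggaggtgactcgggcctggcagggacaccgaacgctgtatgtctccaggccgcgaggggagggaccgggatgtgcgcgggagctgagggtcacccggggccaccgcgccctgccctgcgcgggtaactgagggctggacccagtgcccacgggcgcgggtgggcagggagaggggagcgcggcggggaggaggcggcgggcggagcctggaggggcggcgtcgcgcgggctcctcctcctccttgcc
Rgs4, chr1:169747643-169747892, minus strand: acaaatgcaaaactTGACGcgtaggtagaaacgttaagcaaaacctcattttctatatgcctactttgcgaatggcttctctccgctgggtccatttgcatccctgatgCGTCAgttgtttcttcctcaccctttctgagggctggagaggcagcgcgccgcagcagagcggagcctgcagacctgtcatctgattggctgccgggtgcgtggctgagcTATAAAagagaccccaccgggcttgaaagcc
Rgs5, chr1:169655251-169655500, plus strand: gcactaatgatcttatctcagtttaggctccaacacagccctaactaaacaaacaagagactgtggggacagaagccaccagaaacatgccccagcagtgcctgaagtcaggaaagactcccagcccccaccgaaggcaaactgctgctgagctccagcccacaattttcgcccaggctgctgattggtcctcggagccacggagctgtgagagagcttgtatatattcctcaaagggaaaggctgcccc

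The motifs searched on both strands were the cAMP response element TGACGTCA, its half-site TGACG, which is part of the full element, the AP-1 site TGANTCA, the TATA box TATAAA, and the CArG box of serum response factor. The half-site was present in the windows of Rgs2 (starting at -185 and -67 from the start of transcription) and Rgs4 (at -236 and -141), and 20.8% of all 32851 promoter windows hold at least 1. Rgs4 also has a TATA box at -31, a motif present in 13.6% of all windows. None of the 5 motifs was found in the windows of Rgs5 and Rgs10. The full cAMP response element, the AP-1 site and the CArG box, held by 1.79%, 7.81% and 1.63% of all windows, were not found in these 4 windows. The 250 bases before the start held 76.4% G and C for Rgs10, 72.4% for Rgs2 and 53.6% for both Rgs4 and Rgs5.

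Total counts per library ranged from 19899033 to 21804907 in the hearts and from 14324700 to 18085339 in the NRVMs. Library 1 of the 1-month controls stood apart, with a median correlation of 0.943 to the other control libraries. METTL5-cKO TAC library 4 had the lowest median correlation in its group (0.971), but libraries of other heart groups had lower values. Control library 1 at 3 months, for example, had 0.967. Libraries are numbered from 1 to 4 within a group by the number in the column name. The count of the whole Mettl5 gene did not separate the genotypes in any of the 3 heart tables (log2 fold changes of 0.22, -0.18 and -0.04), so the directions rest on the labels. For the METTL5-cKO line this count includes the exons that are not floxed. The study does not describe the allele of the METTL5-KO animals at 1 month. Defining cardiomyocyte markers were abundant in hearts and NRVMs, while the lymphocyte genes Cd79a and Cd3e were at 0 counts in all NRVM libraries. Markers of myeloid cells and fibroblasts were present there, so the absence of these lymphocyte genes does not show pure cultures of cardiomyocytes. Per AdGFP library, the myeloid genes Adgre1 and Lyz2 had 682 to 883 and 513 to 640 counts. The fibroblast marker Col1a1 had 135973 to 149145 counts in these libraries.

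To set the levels of different genes side by side, CPM values (counts relative to library sizes scaled by edgeR's TMM method) were divided by the length of the annotated exons of each mouse gene. On this scale Rgs5, which marks pericytes and other mural cells of small vessels, had the highest level in all 6 heart groups, with group means from 71.6 to 91.6 CPM per kb, and its libraries did not overlap those of the next gene. Rgs2, a selective regulator of Gq, followed with 6.36 ± 0.485 CPM per kb in the controls at 1 month, 7.52 ± 2.62 at 3 months and 4.44 ± 1.03 after TAC (SD, n = 4). Its libraries overlapped those of Rgs4, the third in order, at 1 month and after TAC. In the controls of both ages Rgs4 overlapped Rgs3, the next in order, and Rgs3 overlapped Rgs10, while Rgs10 overlapped Rgs12 at 3 months. Rgs12, Rgs16 and Rgs6 overlapped in that order at 1 month, as did Rgs14 and Rgs1, and Rgs16 overlapped Rgs14 after TAC. The order of these neighbours rests on group means with overlapping ranges, and no test between genes was made. In the METTL5-cKO TAC hearts Rgs10 (3.52 ± 0.383), Rgs4 (3.45 ± 0.146) and Rgs2 (3.42 ± 2.03 CPM per kb) were too close to be ordered.

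The low end of the order held Rgs14, a scaffold best known from neurons, with group means from 0.151 to 0.260 CPM per kb, and Rgs1, a gene of activated lymphocytes. Rgs16 had 1.13 ± 0.677 CPM per kb in the controls at 1 month, 0.367 ± 0.0611 at 3 months and 0.250 ± 0.107 after TAC (SD, n = 4). These tables are separate and no test was made between them. The lengths of the rat transcripts were not used here, so no order between genes is given for the NRVMs.

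**Figure D1:**
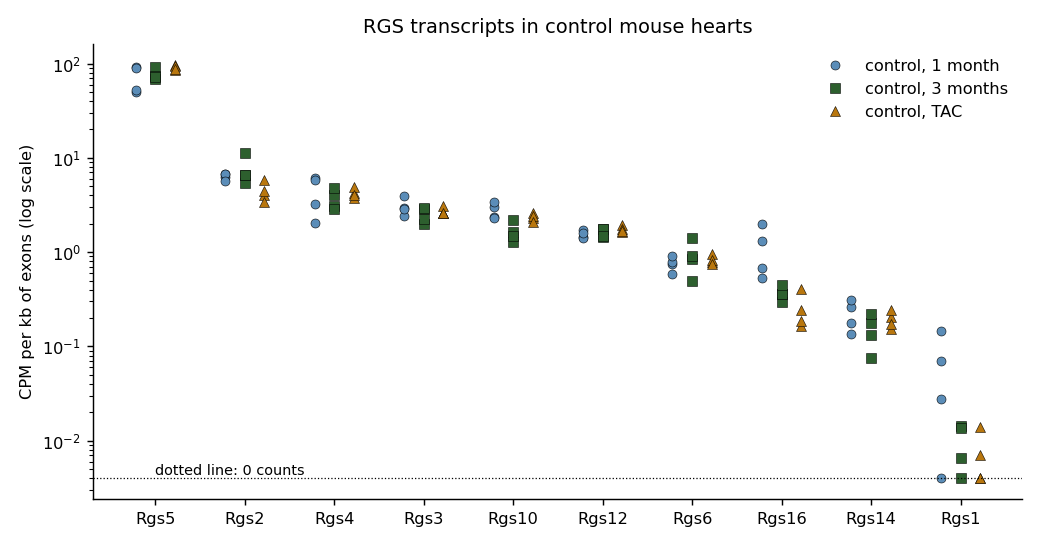
Levels of the 10 RGS genes in control mouse hearts, in CPM per kb of annotated exons on a log axis, with 1 point per library and 4 libraries for each of the ages and the TAC group. Rgs5 lies above all other genes in each group, and Rgs1 has the lowest mean in each, with some libraries at 0 counts on the dotted line.

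Between hearts labelled METTL5-KO and control at 1 month, 0 of the 9 tested RGS genes changed in edgeR's quasi-likelihood test (Benjamini-Hochberg adjusted p under 0.05 over all genes), where 0.00612% of all 16329 genes tested did. An unadjusted p under 0.05 was reached by 1 of them, Rgs2, against 4.57% of all genes, and DESeq2 also called 1, again Rgs2, against 0.0413% of all genes. At 3 months 0 of 9 changed between METTL5-cKO and control, against 0.0732% of all 16391 genes. The unadjusted p was under 0.05 for 1, again Rgs2, against 7.05% of all genes, and DESeq2 called 0, against 0.598% of all genes. Both groups overlapped for all 9, while they were separate for 4.23% of all genes. After TAC 1 of 9 changed, Rgs10, which was higher in the METTL5-cKO hearts, against 12.7% of all 16340 genes (6.57% higher and 6.1% lower). There 5 had an unadjusted p under 0.05, against 31% of all genes, and DESeq2 called 2, Rgs10 and Rgs5, against 16.9%. In the NRVMs 5 of 9 changed with AdMETTL5, 2 higher (Rgs2 and Rgs12) and 3 lower (Rgs6, Rgs10 and Rgs16), against 52.8% of all 15041 genes (27.1% higher and 25.7% lower). The share of the RGS genes that changed was thus near that of all genes after TAC and in the NRVMs. None reached an absolute log2 fold change over 1 together with the adjusted p in any comparison, which 2.9% of all genes did after TAC and 5.85% in the NRVMs.

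**Figure D2:**
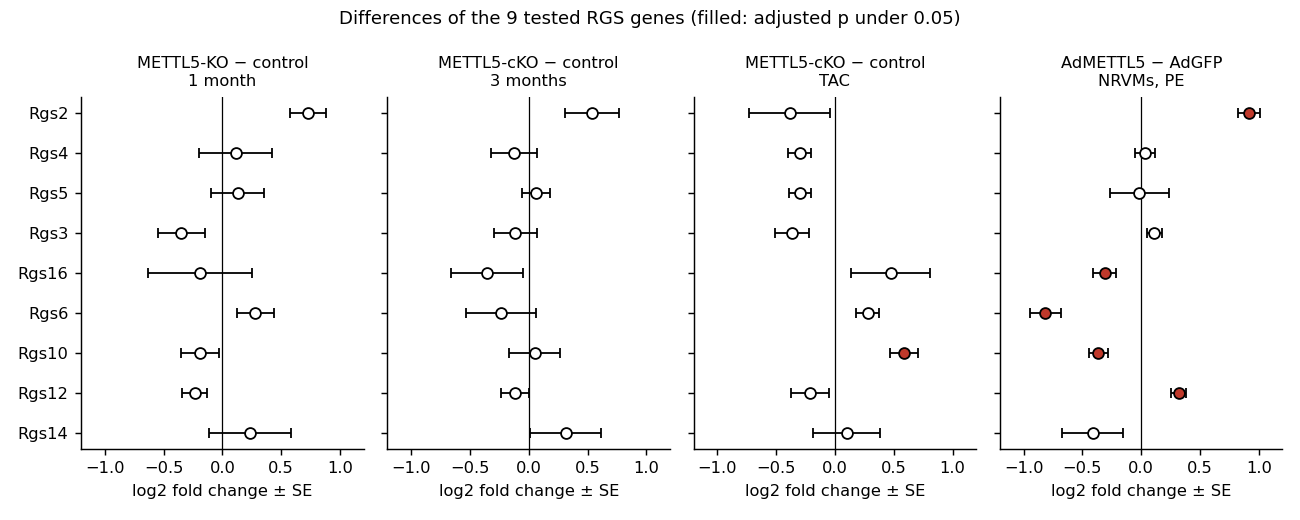
Log2 fold change with its SE for the 9 tested RGS genes in the 4 comparisons, each of 4 against 4 libraries, with filled points at an adjusted p under 0.05 in edgeR. Rgs10 after TAC and Rgs2, Rgs16, Rgs6, Rgs10 and Rgs12 in the NRVMs are filled, and no point is filled at 1 month or 3 months.

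Rgs2 was the member with the largest positive log2 fold change at 1 month, at 3 months and in the NRVMs. The protein acts mainly on Gq, and its transcript is induced by cAMP and by Gq signaling in many cells. In the NRVMs Rgs2 had 37.8, 41.6, 31.5 and 30.9 CPM in the AdGFP libraries 1 to 4 and 69.97, 69.94, 66.8 and 60.9 CPM in the AdMETTL5 libraries. All AdMETTL5 libraries lay above all AdGFP libraries, which was the case in either direction for 48.4% of all genes tested. The mean rose from 35.5 ± 5.16 to 66.9 ± 4.26 CPM (SD, n = 4), 1.89-fold, or 0.92 as a log2 fold change (standard error, SE, 0.0899, edgeR adjusted p = 5.3e-06). With single libraries left out, the log2 fold change stayed between 0.85 and 1.00. Cardiomyocyte markers summed to 33988 to 43124 CPM with AdGFP and 14810 to 16563 CPM with AdMETTL5. The part of this in the rise of Rgs2, or in the changes of other genes in the NRVMs, was not tested.

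In the hearts at 1 month Rgs2 had 23.0, 24.4, 24.3 and 20.6 CPM in the control libraries and 42.9, 40.9, 42.5 and 26.9 CPM in the METTL5-KO libraries. The groups did not overlap, as for 3.01% of all genes, although METTL5-KO library 4 lay close to the controls. The difference of 0.73 on the log2 scale (SE 0.153, from 23.1 ± 1.76 to 38.3 ± 7.63 CPM) had an unadjusted p of 0.000875, which ranked 12 among the 16329 genes, and did not pass the adjustment in edgeR's quasi-likelihood test (adjusted p = 0.966). In DESeq2's Wald test it did pass (log2 fold change 0.74, adjusted p = 0.0381). The exact permutation test of log2 CPM gave p = 0.0286, the smallest p that 4 against 4 libraries allow. Without control library 1, which stood apart, the log2 fold change was 0.73.

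At 3 months Rgs2 had 41.2, 19.9, 23.9 and 24.1 CPM in the control libraries and 46.4, 32.4, 46.6 and 33.2 CPM in the METTL5-cKO libraries. The groups overlapped through control library 1, which was higher than 2 of the METTL5-cKO libraries. The log2 fold change was 0.54 (SE 0.228, 95% interval 0.03 to 1.05) with an adjusted p of 0.679 in edgeR and p = 0.0857 in the exact permutation test. After TAC the values were 14.6, 16.2, 12.4 and 21.2 CPM in the controls and 10.48, 9.07, 6.83 and 23.2 CPM in the METTL5-cKO hearts. METTL5-cKO TAC library 4 was the highest of all 8 libraries, while the other 3 METTL5-cKO libraries were the lowest. The log2 fold change was -0.39 (SE 0.344, edgeR adjusted p = 0.484). With single libraries left out it ran from -0.87 to -0.18, with edgeR adjusted p-values from 0.0156 to 0.768. The -0.87 with 0.0156 came without METTL5-cKO TAC library 4, in a fit where 23.4% of all genes passed. That library also had the highest sum of cardiomyocyte markers in its group (42826 CPM, against 33384 to 35278 in the other 3). All 4 lay below the controls (45104 to 49840 CPM), and 3 of 10 of these markers fell (Tnni3, Myl2 and Myl3). Its sum of fibroblast markers was the lowest in the group (924 CPM, against 2013 to 2987), with 578 to 767 CPM in the controls. The part of these cell types in the result was not tested.

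**Figure D3:**
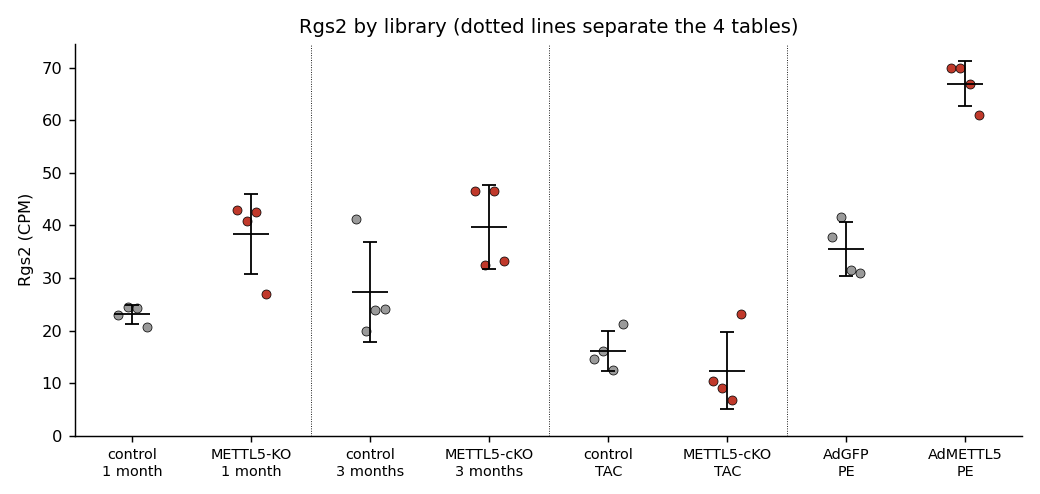
Rgs2 in CPM in each of the 32 libraries, with the mean and SD of each group of 4 and dotted lines between the 4 tables. The METTL5-KO libraries at 1 month (26.9 to 42.9 CPM) lie above their controls and the AdMETTL5 libraries (60.9 to 69.97 CPM) above the AdGFP libraries, while the groups overlap at 3 months and after TAC.

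Whether the genotype difference itself differed between the TAC hearts and the unstressed hearts was tested in 1 fit of both tables with their own controls. For Rgs2 the genotype log2 fold change was lower by 0.91 after TAC than at 3 months, a difference of -0.91 (SE 0.447, unadjusted p = 0.0582, edgeR adjusted p = 0.445). None of the 9 genes passed, where 0.00586% of all 17070 genes did. DESeq2 passed 0 of them as well, against 1.24% of all genes. In edgeR the unadjusted p was 0.0356 for Rgs5 and 0.0392 for Rgs10 and above 0.05 for the other members. With single libraries left out the difference for Rgs2 ran from -1.41 to -0.71, with edgeR adjusted p-values from 0.0328 to 0.677. The -1.41 with 0.0328 came without METTL5-cKO TAC library 4, in a fit where 3.91% of all genes passed.

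Rgs5 and Rgs4 had lower mean levels in the METTL5-cKO hearts after TAC without passing the adjusted threshold. Rgs5 had 389.6, 443, 432 and 401 CPM in the control TAC libraries and 343, 314, 309.8 and 386 CPM in the METTL5-cKO TAC libraries. All METTL5-cKO libraries were below all controls, as in either direction for 18.6% of all genes. The mean was 416 ± 25.3 CPM in the controls and 338 ± 35.0 CPM in the METTL5-cKO hearts (SD, n = 4), which is a log2 fold change of -0.30 (SE 0.0915, 95% interval -0.50 to -0.09, edgeR adjusted p = 0.0599). The adjusted p was 0.0115 in DESeq2 and 0.155 with scaling by library size alone, where the log2 fold change was -0.16. With single libraries left out it ran from 0.00987 (without METTL5-cKO TAC library 4) to 0.166. In whole hearts fewer mural cells and less RNA per cell cannot be told apart, and the same holds for the other genes measured in whole hearts.

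Rgs4, which acts on Gi and Gq, had 11.6, 13.1, 15.3 and 12.7 CPM in the control TAC libraries and 10.2, 10.8, 10.4 and 11.2 CPM in the METTL5-cKO TAC libraries. The groups did not overlap, with the closest libraries at 11.6 and 11.2 CPM. Its log2 fold change was -0.30 (SE 0.0966, edgeR adjusted p = 0.0700). At 1 month and 3 months the groups overlapped for both genes. The log2 fold change of Rgs5 was 0.13 (95% interval -0.37 to 0.63) at 1 month and 0.06 (-0.21 to 0.33) at 3 months, and that of Rgs4 was 0.11 (-0.58 to 0.81) and -0.12 (-0.55 to 0.31). Control library 1 at 1 month had the lowest Rgs5 and Rgs4 of its group, at 229 and 6.31 CPM, and without it the log2 fold changes were near 0 for Rgs5 (-0.00091) and -0.12 for Rgs4.

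Of the 8 genes in a list of pericyte markers, 2 were lower (Kcnj8 with a log2 fold change of -0.62 and Vtn with -0.78) and 1 higher (Cspg4, 0.49) in the METTL5-cKO TAC hearts. The log2 fold change was negative for 7 of the 8, and the median of the list was -0.26, against -0.0035 over all genes. Kcnj8 encodes a subunit of the ATP-sensitive potassium channel of mural cells, Vtn encodes vitronectin and Cspg4 the NG2 proteoglycan. The summed level of the 8 markers was 296 to 320.4 CPM in the control TAC libraries and 230.2 to 305 CPM in the METTL5-cKO TAC libraries. Library 4 had the highest Rgs5 and the highest marker sum of the METTL5-cKO TAC group. At 1 month, where no difference of Rgs5 was detected, the same sum was 195 to 313 CPM in the controls and 334 to 357 CPM in the METTL5-KO hearts. The largest part of it there was 1 gene, Abcc9, with 117 ± 23.6 CPM in the controls and 172 ± 16.3 CPM in the METTL5-KO hearts. In a list of 7 smooth muscle markers, 1 was higher in the METTL5-cKO TAC hearts (Des, log2 fold change 1.01). There 2 were lower (Smtn and Mylk, both -0.47), and the median of the list was -0.12. The part of pericytes or smooth muscle cells in the levels of Rgs5 was not tested.

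In the NRVMs Rgs5 was low, with 16 to 34 counts in the AdGFP and 20 to 27 in the AdMETTL5 libraries, or 1.55 ± 0.495 and 1.54 ± 0.221 CPM (SD, n = 4). The difference of -0.02 on the log2 scale (95% interval -0.55 to 0.52) became 0.12 with scaling by library size alone. Among the pericyte markers in these cultures, Pdgfrb had 377 ± 11.9, Abcc9 67.2 ± 4.11 and Notch3 46.5 ± 3.10 CPM with AdGFP. Kcnj8 and Colec11 had 2.88 and 1.15 CPM. The list summed to 715 to 822 CPM with AdGFP and 748 to 823 CPM with AdMETTL5. Of the 6 markers tested, 2 were higher and 2 lower with AdMETTL5, where 52.8% of all genes changed. Rgs4 had 18.8, 21.7, 17.1 and 16.6 CPM with AdGFP and 19.6, 18.1, 19.0 and 19.2 CPM with AdMETTL5. The AdMETTL5 libraries lay within the range of the AdGFP libraries, and the log2 fold change was 0.03 with a 95% interval of -0.15 to 0.22.

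Rgs3 and Rgs16 complete the tested R4 genes. Rgs3, which acts on Gi and Gq and has long isoforms with further domains, had 28.3, 28.4, 33.2 and 27.9 CPM in the control TAC libraries and 16.3, 25.0, 23.9 and 26.3 CPM in the METTL5-cKO TAC libraries. The groups did not overlap, and the log2 fold change was -0.36 (SE 0.142, edgeR adjusted p = 0.116). In the NRVMs it had 34.2 to 36.6 CPM with AdGFP and 34.8 to 42.0 CPM with AdMETTL5, a log2 fold change of 0.11 (SE 0.0609, edgeR adjusted p = 0.141). With scaling by library size alone it was 0.25 with an adjusted p of 0.00881, and without AdMETTL5 library 3 it was 0.16 with an adjusted p of 0.0496. At 1 month and 3 months its log2 fold changes were -0.35 and -0.11, and the groups overlapped.

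Rgs16, an inducible regulator of Gi and Gq, fell in the NRVMs. It had 12.3, 12.9, 13.7 and 10.8 CPM with AdGFP and 9.78, 8.86, 11.1 and 10.3 CPM with AdMETTL5. The groups overlapped, since AdGFP library 4 lay below AdMETTL5 library 3. The log2 fold change was -0.31 (SE 0.0958, edgeR adjusted p = 0.0160), and the exact permutation test gave p = 0.0571. With scaling by library size alone (median of all genes then 0.13) the value was -0.18 with an adjusted p of 0.166, and without AdMETTL5 library 2 the adjusted p was 0.0507. In the hearts Rgs16 had 7 to 99 counts per library, and its log2 fold changes of -0.19, -0.35 and 0.48 for 1-month, 3-month and TAC hearts came with SEs from 0.303 to 0.441.

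Rgs1 was at or near the limit of detection. It had 26, 4, 8 and 0 counts in the controls and 4, 2, 5 and 4 in the METTL5-KO hearts at 1 month. At 3 months it had 0, 2, 2 and 1 counts in the controls and 2, 2, 3 and 4 in the METTL5-cKO hearts. After TAC it had 0, 2, 0 and 1 counts in the controls, all at or under a floor of 3 counts per library, and 5, 6, 4 and 1 in the METTL5-cKO hearts, and the groups overlapped. The AdGFP libraries held 0 counts, which allows up to 0.174 to 0.181 CPM, and the AdMETTL5 libraries held 0, 5, 6 and 0. No difference was detectable at this depth, and the floor covers counting error only.

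Rgs6, the R7 member that dampens the muscarinic signal in pacemaker and atrial cells, fell in the NRVMs together with its partner Gnb5. Rgs6 had 16.8, 16.8, 22.1 and 24.1 CPM with AdGFP and 10.3, 11.95, 10.1 and 12.9 CPM with AdMETTL5. All AdMETTL5 libraries were below all AdGFP libraries. The mean fell from 19.9 ± 3.74 to 11.3 ± 1.34 CPM (SD, n = 4), which is a log2 fold change of -0.82 (SE 0.131, edgeR adjusted p = 0.000242). Gnb5 fell from 8.98 ± 0.176 to 6.15 ± 1.03 CPM, which is a log2 fold change of -0.55 (SE 0.111, edgeR adjusted p = 0.00131). All 9 cardiomyocyte markers tested were lower as well, and their summed level was 33988 to 43124 CPM with AdGFP and 14810 to 16563 CPM with AdMETTL5, and the part of this in the fall of Rgs6 was not tested.

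After TAC Rgs6 had 9.57, 7.88, 8.27 and 7.57 CPM in the controls and 10.00, 9.93, 11.03 and 9.34 CPM in the METTL5-cKO hearts. Control library 1 lay above METTL5-cKO library 4, so the groups overlapped. The log2 fold change was 0.28 (SE 0.0984, edgeR adjusted p = 0.0916), and with scaling by library size alone it was 0.43 with an adjusted p of 0.0473, in a fit where 15.8% of all genes passed. Gnb5 rose after TAC from 11.4 ± 0.835 to 13.8 ± 0.364 CPM, which is a log2 fold change of 0.28 (SE 0.0781, edgeR adjusted p = 0.0472). Rgs6 had log2 fold changes of 0.28 at 1 month and -0.23 at 3 months, and neither passed the test. At 3 months control library 1 had 14.3 CPM and the other 3 controls had 4.92 to 9.15 CPM.

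Other R7 genes were among the genes of the family outside the 10. After TAC the level of Rgs11 was 0.475 ± 0.206 CPM in controls and 1.90 ± 0.844 CPM in METTL5-cKO hearts (SD, n = 4), from 5 to 14 and from 13 to 57 counts per library. It passed the filter on low counts only through the METTL5-cKO libraries, so no test is given for it. Rgs7, best known from neurons, had 0 to 12 counts per AdGFP library and 26 to 40 counts per AdMETTL5 library. Rgs7bp, the membrane anchor of the R7 complexes, did not pass the test in any of the 4 comparisons.

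Rgs10, a small R12 member that is abundant in macrophages and microglia, was the only one of the 10 genes that changed after TAC in edgeR. It had 4.41, 3.94, 4.16 and 3.54 CPM in the control TAC libraries and 6.80, 6.33, 5.58 and 5.39 CPM in the METTL5-cKO TAC libraries. The lowest METTL5-cKO library was above the highest control. The mean rose from 4.01 ± 0.370 to 6.02 ± 0.656 CPM (SD, n = 4), 1.501-fold, for which the log2 fold change is 0.59 (SE 0.117, edgeR adjusted p = 0.0173). The direction held with each library left out (log2 fold changes of 0.52 to 0.64), and the adjusted p rose above 0.05 without control TAC library 2 (0.0511), control TAC library 4 (0.0593) or METTL5-cKO TAC library 2 (0.0565). The counts behind it were 73 to 89 per control library and 108 to 155 per METTL5-cKO library.

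At 3 months Rgs10 had 2.80, 3.74, 2.17 and 2.55 CPM in the controls and 2.67, 3.47, 2.11 and 3.43 CPM in the METTL5-cKO hearts. The groups overlapped, with a log2 fold change of 0.05 (95% interval -0.43 to 0.54). At 1 month the log2 fold change was -0.19 (95% interval -0.56 to 0.17). The test of the genotype difference after TAC against that at 3 months gave 0.55 for Rgs10 (SE 0.244, edgeR adjusted p = 0.394), so the rise after TAC was not shown to differ from the difference at 3 months.

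Of 12 leukocyte markers, 11 were tested after TAC and 2 rose in the METTL5-cKO hearts, Adgre1 (the macrophage antigen F4/80, log2 fold change 0.71) and Lyz2 (lysozyme of myeloid cells, 0.48). Their median log2 fold change was 0.38, against -0.0035 over all genes. The summed level of the list was 206 to 285 CPM in the control TAC libraries and 281 to 369 CPM in the METTL5-cKO TAC libraries, and METTL5-cKO library 1 had the highest sum and the highest Rgs10. Cd79a, a part of the B-cell receptor, had a log2 fold change of -1.54 that did not pass the test. The part of leukocytes in the rise of Rgs10 was not tested. In the same hearts 7 of 8 fibroblast markers rose and 6 of 8 endothelial markers fell.

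**Figure D4:**
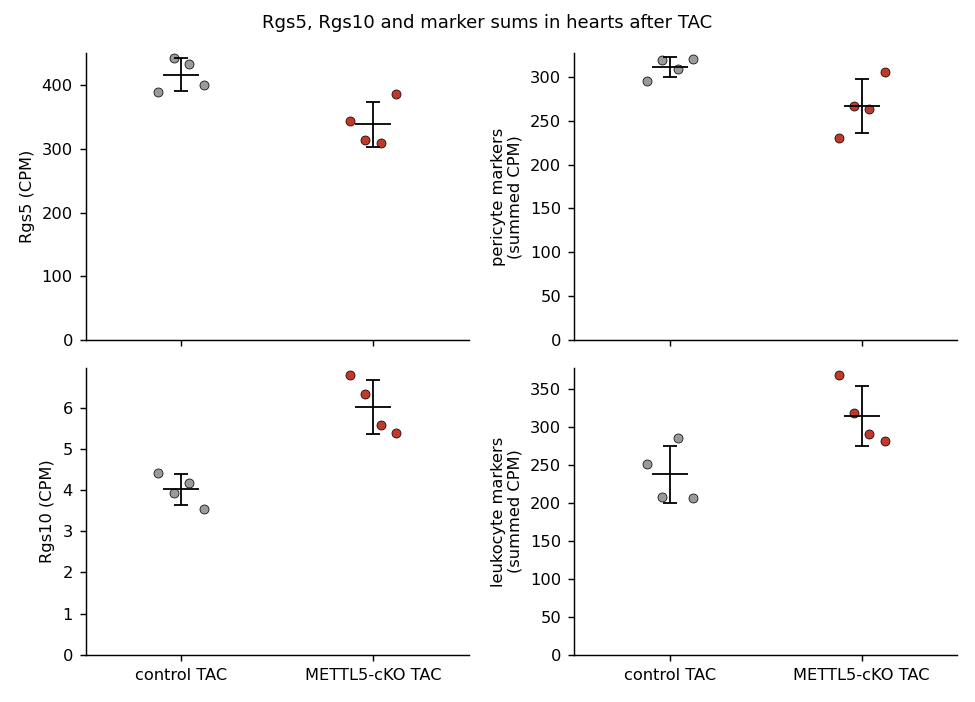
Rgs5 and Rgs10 (left, CPM) beside the summed CPM of 8 pericyte and 12 leukocyte markers (right) in the 4 control and 4 METTL5-cKO libraries after TAC, with means and SD. Rgs5 is lower (309.8 to 386 against 389.6 to 443 CPM) and Rgs10 higher (5.39 to 6.80 against 3.54 to 4.41 CPM) in all METTL5-cKO libraries, and the sum of each marker list overlaps between the groups.

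In the NRVMs Rgs10 fell. It had 15.3, 16.5, 18.2 and 15.2 CPM with AdGFP and 13.2, 12.7, 11.6 and 13.1 CPM with AdMETTL5. The groups did not overlap, and the mean fell from 16.3 ± 1.38 to 12.7 ± 0.763 CPM (SD, n = 4), which is a log2 fold change of -0.36 (SE 0.0800, edgeR adjusted p = 0.00223). Of the 7 leukocyte markers tested there, 2 fell, Lyz2 (-0.84) and Adgre1 (-0.47), while 3 had a positive log2 fold change and the median of the list was -0.041. The list summed to 112 to 131 CPM with AdGFP and 87.0 to 99.3 CPM with AdMETTL5. Beside the cardiomyocyte markers given with Rgs6, 6 of the 7 fibroblast markers tested fell as well, and that list summed to 11531 to 12144 CPM with AdGFP and 9112 to 10042 CPM with AdMETTL5. The part of these cell types in the fall of Rgs10 was not tested.

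Rgs12, a large R12 protein with Ras-binding and GoLoco domains, rose in the NRVMs. It had 22.1, 26.4, 24.5 and 22.7 CPM with AdGFP and 30.2, 29.4, 29.2 and 30.4 CPM with AdMETTL5. The AdMETTL5 libraries were close to each other and above all AdGFP libraries. The mean rose from 23.9 ± 1.94 to 29.8 ± 0.577 CPM (SD, n = 4), or by a log2 fold change of 0.32 (SE 0.0634, edgeR adjusted p = 0.00117). The part of the lower cell type markers, given with Rgs6 and Rgs10, in this rise was not tested. In the hearts its log2 fold changes were -0.23 at 1 month, -0.12 at 3 months and -0.21 after TAC, with overlapping groups in each. After TAC the METTL5-cKO libraries had 11.8, 10.4, 11.5 and 17.9 CPM, against 13.9 to 16.5 CPM in the controls, so that library 4 was again the highest of all. With single libraries left out the log2 fold change of Rgs12 ran from -0.40 to -0.12, with edgeR adjusted p-values from 0.0138 to 0.704. The -0.40 with 0.0138 came without library 4. In that fit 4 RGS genes (Rgs2, Rgs5, Rgs10 and Rgs12) passed, where 23.4% of all genes did.

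Rgs14, a relative of Rgs12 with the same added domains, had 7 to 38 counts per library in all tables and did not pass the test in any. In the tables of 1 month, 3 months, TAC and NRVMs its log2 fold changes were 0.24, 0.32, 0.10 and -0.41, with SEs from 0.262 to 0.351. The widest of the 95% intervals, at 1 month, ran from -0.55 to 1.02.

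**Figure D5:**
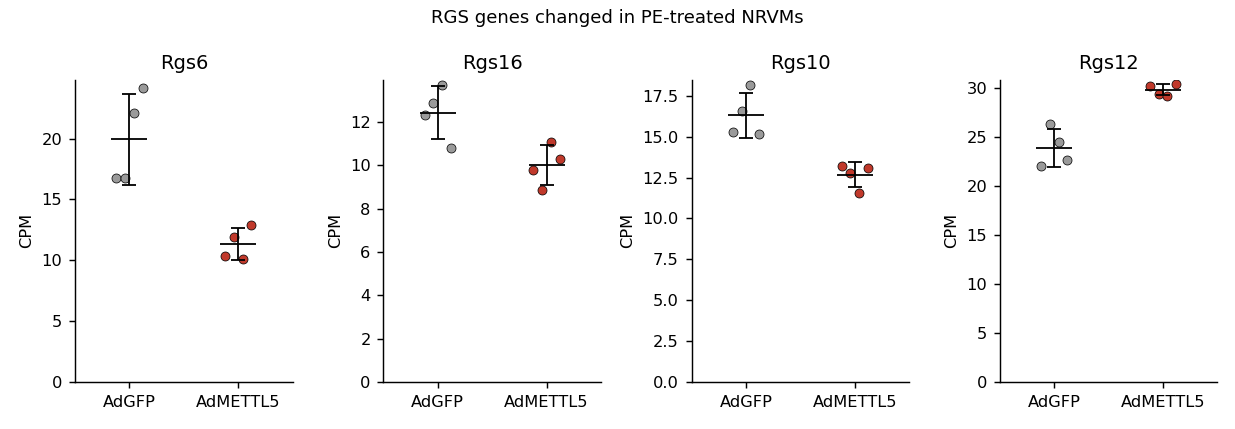
Rgs6, Rgs16, Rgs10 and Rgs12 in CPM in the 4 AdGFP and 4 AdMETTL5 libraries of PE-treated NRVMs, with the mean and SD of each group. The groups are separate for Rgs6, Rgs10 and Rgs12 and overlap for Rgs16.

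The remaining parts of the G-protein cycle were described from lists. Of 13 other genes of the RGS family, 8 were tested in the NRVMs, and in hearts 5, 5 and 4 at 1 month, 3 months and after TAC. None changed at 1 month or 3 months. After TAC none was lower, and for Rgs11 no test is given because of the limit stated above. In the NRVMs 2 of the 8 were lower (Rgs17 and Rgs19), where 25.7% of all genes were. Rgs20, a regulator of Gz and Gi, had 0 to 4 counts per AdGFP library and 22 to 34 per AdMETTL5 library. Rgs20 and Rgs7 passed the filter on low counts only through the AdMETTL5 libraries, so their tests are not given. Rgs17, of the same RZ subfamily, fell from 3.23 ± 0.103 to 2.11 ± 0.422 CPM (log2 fold change -0.61, edgeR adjusted p = 0.00543). Rgs13 and Rgs21 were at 0 counts in all libraries of all 4 tables.

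Among 13 G alpha subunits, on which the RGS proteins act, 1 of 11 tested rose after TAC and none fell, where 12.7% of all genes changed. This was Gnao1, the subunit of Go, which rose from 26.1 ± 1.77 to 49.6 ± 6.83 CPM in the METTL5-cKO hearts (log2 fold change 0.93, SE 0.108, edgeR adjusted p = 0.00408). In the NRVMs 4 of 14 entries rose and 2 fell, with Gnas listed in 2 entries, where 52.8% of all genes changed. Gnao1 fell there from 105 ± 9.49 to 69.6 ± 3.34 CPM (log2 fold change -0.60, edgeR adjusted p = 1.2e-05). Gna13, which activates RhoA, and Gnal, a relative of Gnas, rose with log2 fold changes of 0.49 and 0.78. No G alpha subunit changed at 1 month (11 tested) or 3 months (10 tested).

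Among the beta and gamma subunits, 2 of 12 tested changed after TAC, Gnb5 (given with Rgs6) and Gng5, which fell from 46.0 ± 1.83 to 38.5 ± 1.503 CPM (log2 fold change -0.26, edgeR adjusted p = 0.0340). In the NRVMs 2 of 13 rose and 3 fell, where 52.8% of all genes changed. Gnb3 had a log2 fold change of -1.49 and Gnb4 of 0.86. None of 12 changed at 1 month and none of 11 at 3 months.

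The list of receptor kinases, arrestins and effectors of Gq and its relatives held 14 genes, which were all tested in the hearts. After TAC 1 rose, Grk5, a kinase that switches off receptors and is known from hypertrophic signaling. It rose from 20.1 ± 1.36 to 44.7 ± 12.7 CPM (log2 fold change 1.15, SE 0.180, edgeR adjusted p = 0.00921). In the NRVMs 4 of 13 tested rose and 3 fell, a share close to the 52.8% of all genes. Plcb1, the phospholipase C that Gq activates, rose from 3.58 ± 0.680 to 8.63 ± 0.623 CPM (log2 fold change 1.27, edgeR adjusted p = 6.9e-06). The arrestin Arrb2 rose with a log2 fold change of 1.07, and Grk5 fell with -0.29. The median log2 fold change of the list was -0.09 after TAC and 0.09 in the NRVMs, against -0.0035 and -0.0022 over all genes. At 1 month and 3 months 0 of the 14 changed.

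The genes whose levels ran most like those of Rgs2, Rgs4 and Rgs5 were taken from the 24 heart libraries, after the mean of each group was subtracted, among 15543 genes tested in all heart tables. For Rgs2 they were Kcnip2, a subunit of the transient outward potassium channel (Pearson r = 0.80), Rgcc (0.77) and Cdc42ep4 (0.73). For Rgs5 they were Anpep (0.88), Colec11 (0.87) and Daam2 (0.86), of which Colec11 is in the pericyte list. For Rgs4 they were Zmym1 (0.89), Gm6335 (0.88) and Stip1 (0.87). These are descriptions over libraries that share the 3 tables and their scaling. Among the heart groups, Rgs5 and Rgs4 had their widest spread in the 1-month controls (SD 105 and 6.12 CPM), the group whose library 1 stood apart. No correlation was taken without that library.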

How the data were processed

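RNA sequencing of mouse hearts and NRVMs was taken from 4 deposited tables. Per the labels and the paper's methods, the authors aligned BGISEQ reads with HISAT2 (version 2.0.4) and made estimated counts per gene with StringTie (version 2.1.4). These deposited counts are whole numbers without scaling. They were expected to be plain counts, and the test was the same for both. Columns were matched to single samples at 1 month and for AdMETTL5, and to a group elsewhere. No column was left unmapped. No source used here says that libraries of a group came from separate cultures, so p-values for NRVMs measure only the spread between these libraries.

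The quasi-likelihood test of edgeR (4.0.16, under R 4.3.3) was run on each table separately, on genes kept by filterByExpr (count of at least 10, total of at least 15) and TMM-scaled library sizes, and p-values were adjusted over all genes by Benjamini-Hochberg. A gene was changed at an adjusted p under 0.05. For the 10 genes the mean log2 CPM (prior count 2) was permuted exactly and two-sided over all 70 labellings, for which the smallest p is 0.0286. An edgeR interaction term compared the genotype differences of 2 tables. Levels per kb used exon unions of the GENCODE annotation, which held 55141 of the 55487 mouse identifiers. The depth of 14324700 to 21804907 counts per library gave median standard errors (log2) of 0.175, 0.157, 0.134 and 0.0807 for the 1-month, 3-month, TAC and NRVM tables. No pair of libraries was a duplicate (lowest chi-square over degrees of freedom 2.20).

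The 10 genes and all lists were chosen with earlier results of these data known. Named were the 10 genes, up to 3 changed genes of each list and comparison with the smallest adjusted p, and the 3 genes most correlated with each of Rgs2, Rgs4 and Rgs5. Cd79a, Cd3e, Rgs7bp, Rgs13, Rgs19, Rgs21, Kcnj8 and Colec11 were also named, some after their values were seen, and 1 gene of the leukocyte list is not reported here. Alternatives were the test or size factors of DESeq2 (1.42.0), library-size scaling, filters (none, or 10 counts in each sample), thresholds (unadjusted p, minimum fold change), a replicate block and leaving out each library. The scripts were tested on simulated data.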

Additional observations from a re-analysis of the deposited data

Results flagged for a closer look

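Of 72 groups of 4 libraries checked for a library far from the others (Dixon's ratio of the gap to the range), 3 had one, where chance gives about 1 in 20. Rgs2 in METTL5-KO library 4 at 1 month was at 26.9 CPM, while its group otherwise ranged from 40.9 to 42.9 CPM. Rgs16 in METTL5-KO library 3 at 1 month was at 1.10 CPM, below 2.66 to 2.84 CPM. Rgs3 in control TAC library 3 was at 33.2 CPM, above 27.9 to 28.4 CPM.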

How the results depend on the processing

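The count of changed RGS genes is given here with the share of all genes that passed in brackets. At 1 month it was 0 and became 1 with DESeq2 (0.0413%) or an unadjusted p (4.57%), and at 3 months 0 became 1 with an unadjusted p (7.05%). After TAC it was 1 (12.7%), and 2 under library-size scaling (Rgs6 added, 15.8%) or DESeq2 (Rgs5 added, 16.9%). It was 5 with an unadjusted p (31%) and 0 with a minimum absolute log2 fold change of 1 (2.9%). In NRVMs it was 5 (52.8%) and became 0 with that minimum (5.85%). With each library left out it ranged from 0 to 4 after TAC (2.88% to 23.4%), with the 4 reached without METTL5-cKO library 4. The range was 4 to 6 in NRVMs (46.4% to 50.6%) and 0 to 1 for TAC against 3 months (0% to 3.91%). The count stayed 0 at 1 month and 3 months. Scaling by library size alone turned Rgs5 in NRVMs from -0.02 to 0.12. It moved the median log2 fold change of all genes to 0.14 after TAC and 0.13 in NRVMs. Log2 fold changes that changed sign with a library left out were, at 1 month, Rgs4 (-0.12 to 0.34), Rgs5 (-0.00091 to 0.28), Rgs14 (-0.042 to 0.43) and Rgs16 (-0.43 to 0.26), and at 3 months Rgs3 (-0.24 to 0.012), Rgs4 (-0.23 to 0.022), Rgs5 (-0.011 to 0.16), Rgs6 (-0.44 to 0.059) and Rgs10 (-0.053 to 0.22). Others were Rgs14 after TAC (-0.063 to 0.32), Rgs4 (-0.018 to 0.11) and Rgs5 (-0.20 to 0.14) in NRVMs, and Rgs12 (-0.28 to 0.014) and Rgs14 (-0.43 to 0.023) for TAC against 3 months. Except where a smaller number of genes or libraries was tested, the cause was not tested. With the replicate block at 1 month 0 RGS genes changed, and 1 gene of all changed with and without the block. The deviations of same-numbered libraries had correlations of 0.24, 0.12, -0.11 and 0.08, and only pair 1 correlated best with its own number. This gave no clear sign of pairing by number, but 4 correlations cannot exclude a weak pairing. In the other tables the columns carry no shared replicate numbers. Low counts limited Rgs1, Rgs14, Rgs16 in hearts and Rgs5 in NRVMs.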
